A study of Homo sapiens with 6 samples.

Results

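The ribonuclease P and RNase MRP protein subunits were described in MDA-MB-231, a long-established line from a human breast cancer that lacks estrogen, progesterone and HER2 receptors. Cells had been exposed to 1 µM selamectin for 24 h or were controls, with 3 arrays in each group. Selamectin, an avermectin-type macrocyclic lactone, is given to animals against parasites, and the series title presents avermectins as inhibitors of the SIN3 corepressor. The control titles say untreated while the treatment protocol speaks of a vehicle, and it is not settled which of these the control cultures had. All cultures were of this 1 cell line, and the design text calls the replicates independent without saying how the cultures were separated, so p-values measure only the spread between these arrays.

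Of 10 subunit genes named, 9 had a transcript cluster (a group of probes designed against 1 locus) annotated with 1 symbol only, and each of the 9 had 1 such cluster. They are 9 of 18417 genes measured in this way. RPP21 lies on 3 clusters that also carry the symbol of the TRIM39-RPP21 readthrough gene, and it was left out for that reason. RPP40 was chosen by its log2 difference, 1 of the largest rises on these same arrays, so its difference is given as a description with no test. The other 8 measured genes were chosen as its partners in the enzyme.

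Ribonuclease P is the endonuclease that removes the 5′ leader from precursor transfer RNAs. In human cells its nuclear form is a catalytic RNA, encoded by RPPH1, wrapped by protein subunits. RNase MRP is a sister enzyme built on a related RNA, encoded by RMRP, that uses most of the same proteins and cuts the precursor of ribosomal RNA in its first internal spacer. In the human ribonuclease P structure, POP5, RPP14, RPP30 and RPP40 form one protein module, POP7 and RPP25 another, and POP4 (also called RPP29), RPP21 and RPP38 a further one, while POP1, the largest protein, holds to the RNA on its own.

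Promoter sequence from RefSeq (GRCh38.p14), reaching from 250 bases before to 50 bases after the annotated start, was at hand for 8 of the 9 measured members. Those of RPP40, the member with the largest difference, of RPP30, the largest difference among its partners, and of POP5, the smallest, are shown so that the letters before the member that moved most can be read beside those of module partners that moved less. Capitals mark matches on either strand to the GC box GGGCGG and to CCAAT, and each sequence is written 5′ to 3′ on the gene's own strand. The RPP40 window is chr6:5003988-5004287 on the minus strand, the RPP30 window chr10:90871724-90872023 on the plus strand, and the POP5 window chr12:120581353-120581652 on the minus strand.
RPP40: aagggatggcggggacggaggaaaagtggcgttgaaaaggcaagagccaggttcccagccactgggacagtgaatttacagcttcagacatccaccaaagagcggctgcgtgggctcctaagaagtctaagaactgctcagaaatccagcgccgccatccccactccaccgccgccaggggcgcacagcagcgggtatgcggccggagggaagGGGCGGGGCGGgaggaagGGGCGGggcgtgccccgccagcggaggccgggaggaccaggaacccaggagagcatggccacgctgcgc
RPP30: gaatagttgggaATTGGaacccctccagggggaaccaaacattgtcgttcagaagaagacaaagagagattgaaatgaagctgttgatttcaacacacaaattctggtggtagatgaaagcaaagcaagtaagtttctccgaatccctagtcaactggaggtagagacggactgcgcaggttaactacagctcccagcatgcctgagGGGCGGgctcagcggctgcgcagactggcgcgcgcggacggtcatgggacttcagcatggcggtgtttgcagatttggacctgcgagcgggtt
POP5: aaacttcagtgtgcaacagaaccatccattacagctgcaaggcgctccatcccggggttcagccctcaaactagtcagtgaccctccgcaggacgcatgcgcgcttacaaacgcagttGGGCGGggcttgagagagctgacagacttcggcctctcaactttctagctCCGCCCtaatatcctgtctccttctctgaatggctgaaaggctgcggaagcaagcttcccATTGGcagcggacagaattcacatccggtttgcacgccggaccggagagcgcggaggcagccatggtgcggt

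The RPP40 window held 3 GC boxes, beginning 37, 32 and 19 bases before the start, of which the first 2 share 1 base. POP5 held 2, RPP30 held 1, POP7 and RPP14 held 3 each, RPP25 held 2, and POP4 and RPP38 held none. At least 1 GC box was found in 45.0% of the 35116 promoters in the table and 2 or more in 26.7%, so the letters are common. The E-box CACGTG, which proteins of the MYC, MAX and MXD network bind, was found in POP7 alone among the 8 windows and in 7.26% of all promoters. Of the other motifs searched on both strands, CCAAT occurred once each in POP5, RPP30 and RPP38 (34.6% of all promoters), CCGGAAG once each in POP4 and POP7 (10.3%), and the NRF1-type GC repeat in POP4, POP7, RPP14 and, as 2 copies, RPP38 (8.32%). RPP40 held none of these 4. These matches describe letters in the window and are not evidence of a bound factor.

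RPP40, a protein of the POP5 module, had log2 values of 9.44, 9.80 and 9.86 on the 3 selamectin arrays and 8.89, 8.50 and 8.72 on the 3 untreated arrays. The groups did not overlap, and the lowest selamectin value, on array 1, stood above the highest untreated value, also on array 1. The means were 9.70 ± 0.23 with selamectin and 8.70 ± 0.20 untreated (SD, n = 3 each), a log2 difference of 1.00 ± 0.13 (SE) or 2.00-fold. Of all 18417 genes, 6 had a larger positive difference and 17 a larger difference in either direction.

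The log2 differences of the 8 partners lay between -0.01 (POP5) and 0.36 (RPP30). Of the 8, 7 had a positive log2 difference, where 63.0% of all genes did, and their median was 0.26, beside 0.04 for all genes. None of the 8 passed an adjusted p of 0.05 in limma, where 4.69% of all genes passed in either direction (2.41% rose and 2.28% fell). At an unadjusted p under 0.05, 5 of the 8 were higher and 0 lower, where 11.7% of all genes were higher and 8.21% lower (19.9% in either direction). The groups did not overlap for 4 of the 8, in each case with selamectin higher, where 25.3% of all genes did not overlap and 16% did so with selamectin higher. The 5 higher partners became 3 without untreated array 1 or without untreated array 3, and also 3 after a second quantile normalization.

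**Figure D1:**
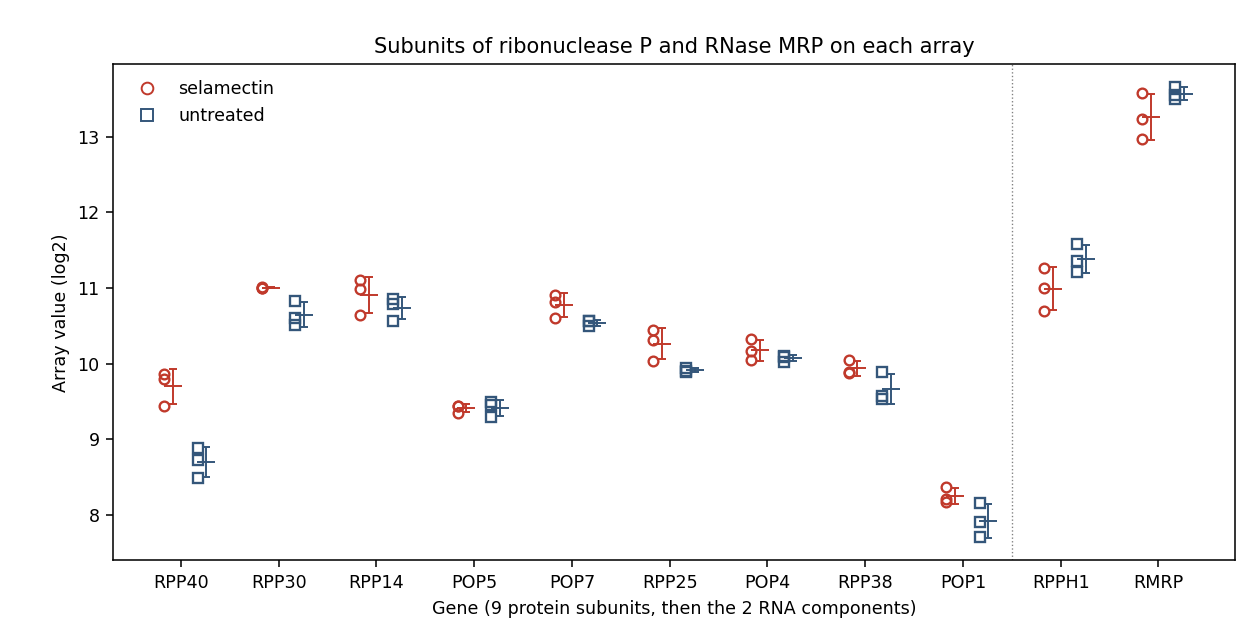
Array values on a log2 scale for the 9 protein subunits and, right of the dotted line, the 2 RNA components. Circles are the 3 selamectin arrays, squares the 3 untreated arrays, and the bars beside them the mean ± SD. RPP40 is the gene with the widest gap between its groups, with means of 9.70 with selamectin and 8.70 untreated, while POP5 stood at 9.41 with selamectin and 9.42 untreated. Heights of different genes come from different probes and cannot be compared.

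Within the module that holds RPP40, the 3 partners differed among themselves. RPP30, which forms the centre of this module, had 11.01, 11.00 and 11.00 on the selamectin arrays and 10.60, 10.52 and 10.83 on the untreated arrays. Its groups did not overlap, and the 3 selamectin values were nearly equal, with an SD of 0.0073. The difference was 0.36 (95% interval 0.14 to 0.57, limma adjusted p = 0.060), and it missed the threshold over all genes. It passed narrowly when the dimmest 25% of genes (adjusted p = 0.0498) or the dimmest 50% (adjusted p = 0.0439) were dropped, and over all settings the adjusted p lay between 0.044 and 0.19. With array weights the difference was smaller, at 0.22 (adjusted p = 0.077).

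RPP14, whose transcripts also carry the reading frame of the mitochondrial dehydratase HTD2, had 11.10, 10.98 and 10.64 on the selamectin arrays and 10.85, 10.57 and 10.79 on the untreated arrays. The groups overlapped because selamectin array 3 fell among the untreated values. The difference was 0.18 (interval -0.10 to 0.45, limma adjusted p = 0.47). It was 0.080 without selamectin array 1, 0.091 without untreated array 2 and 0.31 without selamectin array 3. POP5, a fold relative of RPP14 that contacts the catalytic RNA, had 9.36, 9.44 and 9.45 on the selamectin arrays and 9.50, 9.30 and 9.46 on the untreated arrays. All 3 selamectin values of POP5 lay inside the untreated range. Its difference was -0.01 (interval -0.21 to 0.20, adjusted p = 0.98).

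Another module pairs POP7 (also called RPP20) with RPP25, both Alba-type RNA-binding proteins that clasp the RNA together. RPP25 had 10.04, 10.31 and 10.44 on the selamectin arrays and 9.90, 9.91 and 9.94 on the untreated arrays. The untreated values were nearly equal and all lay below the selamectin values, with an SD of 0.20 with selamectin and 0.02 untreated. The difference was 0.35 (interval 0.11 to 0.59, limma adjusted p = 0.098), and it passed without selamectin array 1 (0.46, adjusted p = 0.040).

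POP7 had 10.61, 10.82 and 10.91 on the selamectin arrays and 10.50, 10.56 and 10.56 on the untreated arrays. Its groups did not overlap either, and array 1 was again the lowest of the selamectin arrays, as it was for RPP40 and RPP25. The difference was 0.24 (interval 0.03 to 0.45, limma adjusted p = 0.20). RPP25L, a close relative of RPP25 that is not a member, had a difference of 0.14 (interval -0.07 to 0.35, adjusted p = 0.44), and its groups overlapped.

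In the module of POP4 and RPP38, RPP38, a protein of the L7Ae family that also binds other structured RNAs, had 10.05, 9.88 and 9.88 on the selamectin arrays and 9.57, 9.89 and 9.53 on the untreated arrays. Untreated array 2 overlapped the selamectin values and the other untreated arrays lay below them. The difference was 0.28 (interval 0.03 to 0.52, limma adjusted p = 0.20). With array weights, which give untreated array 3 a weight of 5.11 and untreated array 2 one of 0.45, it was 0.40 (adjusted p = 0.010), in a fit that called 17.8% of all genes.

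POP4, a core protein with archaeal relatives, had 10.32, 10.17 and 10.05 on the selamectin arrays and 10.03, 10.11 and 10.09 on the untreated arrays. Selamectin array 3 lay inside the untreated range. The difference was 0.10 (interval -0.11 to 0.31, limma adjusted p = 0.58), and it was 0.034 without selamectin array 1 and 0.17 without selamectin array 3.

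POP1, the scaffold that both enzymes share, had 8.21, 8.18 and 8.38 on the selamectin arrays and 8.16, 7.71 and 7.91 on the untreated arrays. The groups did not overlap, but the gap between the lowest selamectin and the highest untreated value was narrow. The difference was 0.33 (interval 0.07 to 0.59, limma adjusted p = 0.15), and with array weights it passed (adjusted p = 0.031).

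**Figure D2:**
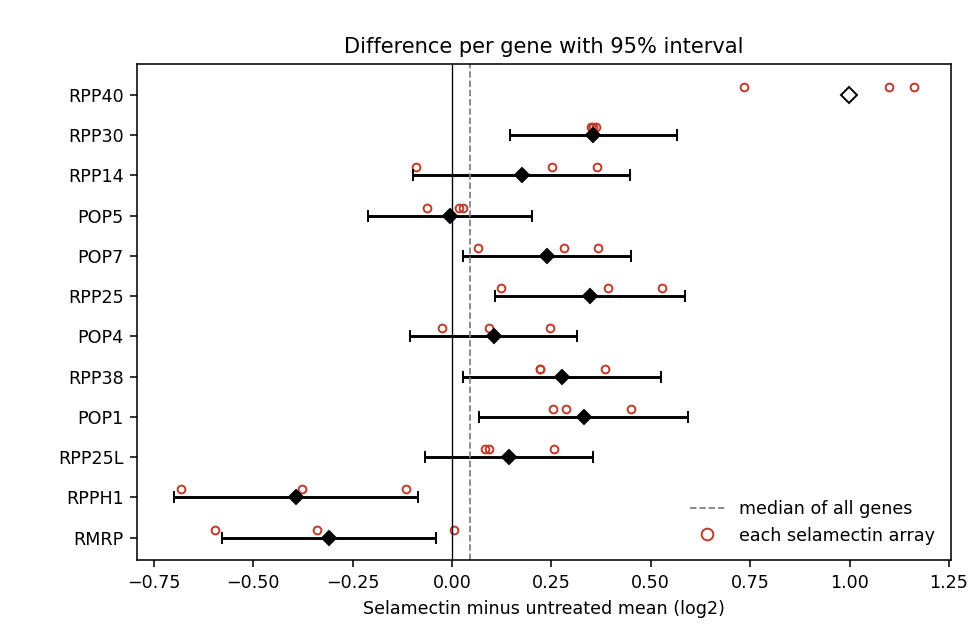
Log2 difference, selamectin minus untreated mean, for the subunits, the paralogue RPP25L and the 2 RNA components. Diamonds are group differences with 95% intervals from limma, the open diamond is RPP40 with no interval because it was chosen for this difference, circles are single selamectin arrays, and the dashed line is the median of all genes. Among the members the 3 circles of RPP30 lie together, and those of RPP14, POP4 and POP5 reach from below 0 to above it.

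The RNA components of the enzymes stood on the opposite side of 0 from most of the proteins. RPPH1, the catalytic RNA of ribonuclease P, had 10.70, 11.01 and 11.27 on the selamectin arrays and 11.58, 11.36 and 11.21 on the untreated arrays. RMRP, the RNA of RNase MRP that is mutated in cartilage-hair hypoplasia, had 12.97, 13.23 and 13.57 on the selamectin arrays and 13.55, 13.66 and 13.49 on the untreated arrays. For both genes selamectin arrays 1 and 2 lay below all untreated arrays, while selamectin array 3 lay among them.

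The log2 difference was -0.39 for RPPH1 (interval -0.70 to -0.08, limma adjusted p = 0.14) and -0.31 for RMRP (interval -0.58 to -0.04, adjusted p = 0.19), and neither passed. Without selamectin array 3 both passed as lower, RPPH1 with -0.53 (adjusted p = 0.025) and RMRP with -0.47 (adjusted p = 0.0090). Without selamectin array 1 the differences shrank to -0.25 for RPPH1 (adjusted p = 0.35) and -0.17 for RMRP (adjusted p = 0.44). RMRP also passed with array weights (-0.33, adjusted p = 0.027). Both RNAs are short, structured and without a poly(A) tail, and whether the labelling recovered them evenly on all arrays was not tested.

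Array by array, RPP40 and both RNAs were ordered alike among the selamectin arrays, lowest on array 1 and highest on array 3. Relative to the untreated mean, RPP40 stood at 0.73, 1.10 and 1.16 on selamectin arrays 1, 2 and 3 and at 0.19, -0.21 and 0.02 on untreated arrays 1, 2 and 3. The mean of the 8 partners was nearly the same on the 3 selamectin arrays, at 0.22, 0.23 and 0.23, and stood at 0.02, -0.05 and 0.02 on the untreated arrays. RPPH1 stood at -0.68, -0.38 and -0.11 on the selamectin arrays and at 0.20, -0.02 and -0.17 on the untreated arrays. Selamectin array 1 was thus the array with the smallest RPP40 difference and the lowest level of both RNAs among the treated arrays. The median of all genes lay between 0.01 and 0.07 on the selamectin arrays and between -0.02 and 0.02 on the untreated arrays.

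**Figure D3:**
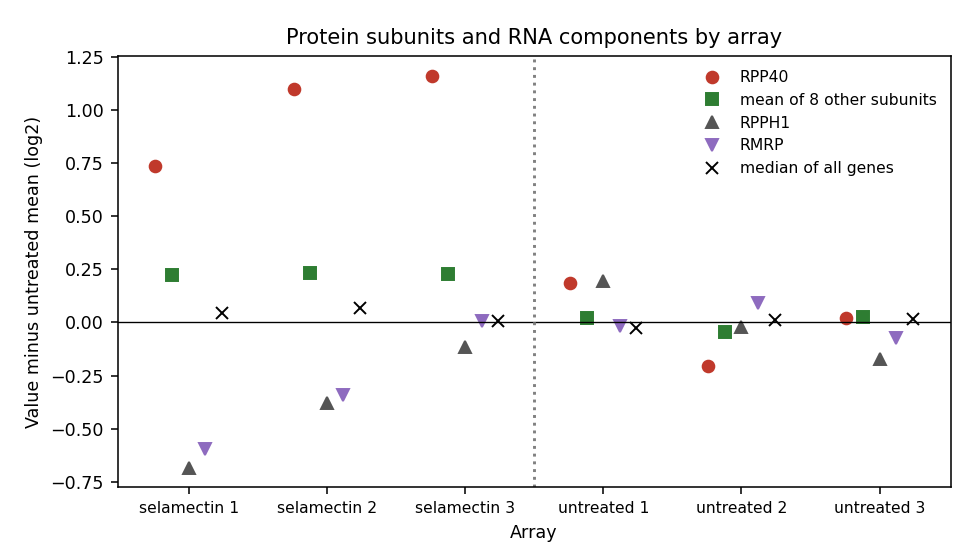
Values on each array minus the untreated mean (log2), with selamectin arrays left of the dotted line and untreated arrays right of it. RPP40 lies above the mean of the 8 other subunits on every selamectin array. RPPH1 and RMRP lie lowest on selamectin array 1 and near the untreated arrays on selamectin array 3.

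None of the 6 measured genes nearest to RPP40 on chromosome 6 passed in limma, where 4.69% of all genes passed in either direction. In RefSeq order the 3 measured genes on the lower-coordinate side are ECI2, KU-MEL-3 and CDYL, and the 3 on the other side are LYRM4, FARS2 and NRN1. CDYL, a chromodomain corepressor, differed by -0.05 (interval -0.24 to 0.14) and LYRM4, a factor of iron-sulphur cluster assembly, by 0.03 (interval -0.19 to 0.25). ECI2, a fatty acid isomerase, stood at -0.04 and KU-MEL-3 at 0.03. FARS2, the mitochondrial phenylalanyl-tRNA synthetase, had the largest positive difference at 0.15 (interval -0.03 to 0.33, limma adjusted p = 0.35). NRN1, the neuronal protein neuritin, stood at -0.21 (interval -0.37 to -0.05, limma adjusted p = 0.14), the only interval of the 6 that left out 0. The groups of FARS2 and of NRN1 did not overlap, beside 25.3% of all genes.

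**Figure D4:**
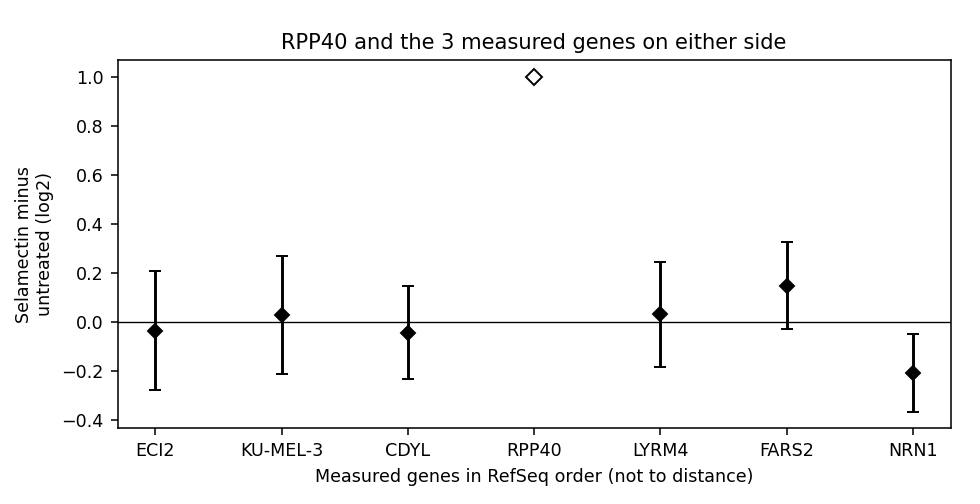
Log2 difference, selamectin minus untreated, of RPP40 and of the 3 measured genes on either side of it in RefSeq order, with 95% intervals from limma for the neighbours. The axis shows order and not distance. The 6 neighbours lie between -0.21 and 0.15, and RPP40, drawn without an interval, lies at 1.00.

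The genes whose profile over the 6 arrays was most like that of RPP40 were found by the root mean square distance between values centred on each gene's untreated mean. They were LANCL2 (distance 0.11), CLN6 (0.14), TRIM29 (0.15), PRKAR1B (0.18) and RAD51C (0.19). LANCL2 had 10.16, 10.24 and 10.41 on the selamectin arrays and 9.30, 9.12 and 9.34 on the untreated arrays, and CLN6 had 11.37, 11.72 and 11.82 on the selamectin arrays and 10.60, 10.60 and 10.84 on the untreated arrays. As for RPP40, selamectin array 1 was the lowest treated array for both. A likeness to RPP40 in this measure requires a difference of similar size, so each of the 5 is also among the strong rises, and none is a subunit of either enzyme. Among the partners, Pearson's r with RPP40 over the 6 arrays was 0.92 for RPP25, 0.87 for POP1, POP7 and RPP30, 0.51 for RPP38, 0.40 for RPP14, 0.26 for POP4 and 0.25 for POP5. These values describe arrays of 2 groups, so each includes the difference between the groups.

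Across wider lists of related genes, a few rises and no falls passed the threshold. The lists cover the RNA components, RPP25L, mitochondrial ribonuclease P, transfer RNA and ribosomal RNA processing, and RNA polymerase III with its factors. Only some of these are pathways that ribonuclease P or RNase MRP serves. Of 92 genes in 9 lists, 87 were measured, and 7 rose and none fell in limma, where 2.41% of all genes rose and 2.28% fell. Their median log2 difference was 0.11, beside 0.04 for all genes, and at an unadjusted p under 0.05 there were 29 higher and 9 lower, where 11.7% of all genes were higher and 8.21% lower. The 7 calls became 2 without untreated array 1, 4 without untreated array 2, 3 without untreated array 3 and 1 without selamectin array 2. In the same fits the share of all genes called was 0.956%, 3.61%, 1.38% and 1.27%, where it was 4.69% with all arrays. The calls became 1 when all clusters entered the fit, where 0.907% of all genes were called, and 26 with array weights, where 17.8% were.

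The mitochondrial ribonuclease P is an unrelated, protein-only enzyme of 3 proteins, and its genes did not move together. HSD17B10, a dehydrogenase that is one of its structural subunits, had 11.41, 11.82 and 11.71 on the selamectin arrays and 11.22, 11.13 and 11.24 on the untreated arrays. The groups did not overlap, and the gene rose by 0.45 (limma adjusted p = 0.039). When 1 array was left out, the call held only without selamectin array 1 (adjusted p up to 0.17). With all arrays it was lost after a second quantile normalization (0.060), with all clusters in the fit (0.12) and with the replicate number as a block (0.061), and it held in the other settings. TRMT10C, the methyltransferase subunit, stood at 0.23 (adjusted p = 0.17) and PRORP, the nuclease itself, at -0.18 (adjusted p = 0.25). Neither passed, and the groups of all 3 genes did not overlap, beside 25.3% of all genes.

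In transfer RNA processing after the 5′ cut, no gene passed in limma, where 4.69% of all genes passed in either direction. Of 4 measured genes of the 3′ end, none had an unadjusted p under 0.05, where 19.9% of all genes did. ELAC2, the nuclease that trims the 3′ trailer, stood at 0.16, the La protein gene SSB at 0.04 and ELAC1 at 0.01. Of 11 splicing genes, 3 were higher and 1 lower at an unadjusted p under 0.05, where 11.7% of all genes were higher and 8.21% lower. Among these were subunits of the splicing endonuclease, with TSEN34 at 0.30 (adjusted p = 0.14), TSEN54 at 0.27 (adjusted p = 0.13) and TSEN15 at -0.30 (adjusted p = 0.074).

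Of 22 transfer RNA modification genes none passed in limma, where 4.69% of all genes passed in either direction. At an unadjusted p under 0.05, 11 of the 22 were higher and 1 was lower, where 11.7% of all genes were higher and 8.21% lower. The groups did not overlap for 14 of the 22, beside 25.3% of all genes, and the list's median was 0.23, beside 0.04. METTL1, which with WDR4 makes 7-methylguanosine, stood at 0.39 (adjusted p = 0.051), the dihydrouridine synthase gene DUS1L at 0.36 (adjusted p = 0.052) and the pseudouridine synthase gene PUS1 at 0.36 (adjusted p = 0.054).

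RNA polymerase III makes transfer RNAs, RPPH1 RNA and RMRP RNA. Of 12 of its subunit genes measured, POLR3C alone rose in limma, where 2.41% of all genes rose. POLR3C had 10.56, 10.53 and 10.63 on the selamectin arrays and 10.10, 9.88 and 10.21 on the untreated arrays. The difference was 0.51 (limma adjusted p = 0.019). It lost the call without untreated array 1 (adjusted p = 0.071) or selamectin array 2 (adjusted p = 0.067), and with all clusters in the fit (adjusted p = 0.078). POLR3B, the second largest subunit, stood at 0.38 (adjusted p = 0.074), and POLR3GL, one of 2 alternative subunits, at -0.46 (adjusted p = 0.069), so that members differed in sign and the list's median was 0.05.

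Among 18 measured genes of the polymerase III transcription factors, 2 rose in limma, where 2.41% of all genes rose. GTF3C6, a subunit of the promoter-binding factor TFIIIC, had 11.00, 10.87 and 10.75 on the selamectin arrays and 10.38, 9.82 and 10.23 on the untreated arrays, a rise of 0.73 (limma adjusted p = 0.014). It lost the call without selamectin array 2 (adjusted p = 0.057) and with all clusters in the fit (adjusted p = 0.082). GTF3A, which brings the polymerase to 5S ribosomal RNA genes, rose by 0.44 (adjusted p = 0.023). When 1 array was left out, it held the call only without selamectin array 3, and it lost the call with all clusters in the fit (adjusted p = 0.078). The TFIIIC subunit gene GTF3C2 stood at 0.27 (adjusted p = 0.16).

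Of 14 measured genes that process the spacers and ends of the ribosomal RNA precursor, the pathway RNase MRP acts in, 3 rose in limma. Of all genes, 2.41% rose. At an unadjusted p under 0.05, 6 of the 14 were higher and 1 lower, where 11.7% of all genes were higher and 8.21% lower. NOL9, the polynucleotide kinase that works on the second internal spacer, had 10.30, 10.34 and 10.30 on the selamectin arrays and 9.81, 9.45 and 9.73 on the untreated arrays. Its difference of 0.65 (limma adjusted p = 0.0094) stayed past the threshold in all 16 alternatives run, with adjusted p up to 0.0497. ISG20L2, an exonuclease that matures 5.8S ribosomal RNA, rose by 0.36 (adjusted p = 0.034), and NOB1, the endonuclease that makes the 3′ end of 18S ribosomal RNA, by 0.34 (adjusted p = 0.049). When 1 array was left out, ISG20L2 held its call only without selamectin array 3, and NOB1 held it in no case. With the replicate number as a block neither passed (adjusted p = 0.060 for both), nor with all clusters in the fit (0.095 for ISG20L2 and 0.12 for NOB1). NOB1 also lost its call after a second quantile normalization (adjusted p = 0.091).

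**Figure D5:**
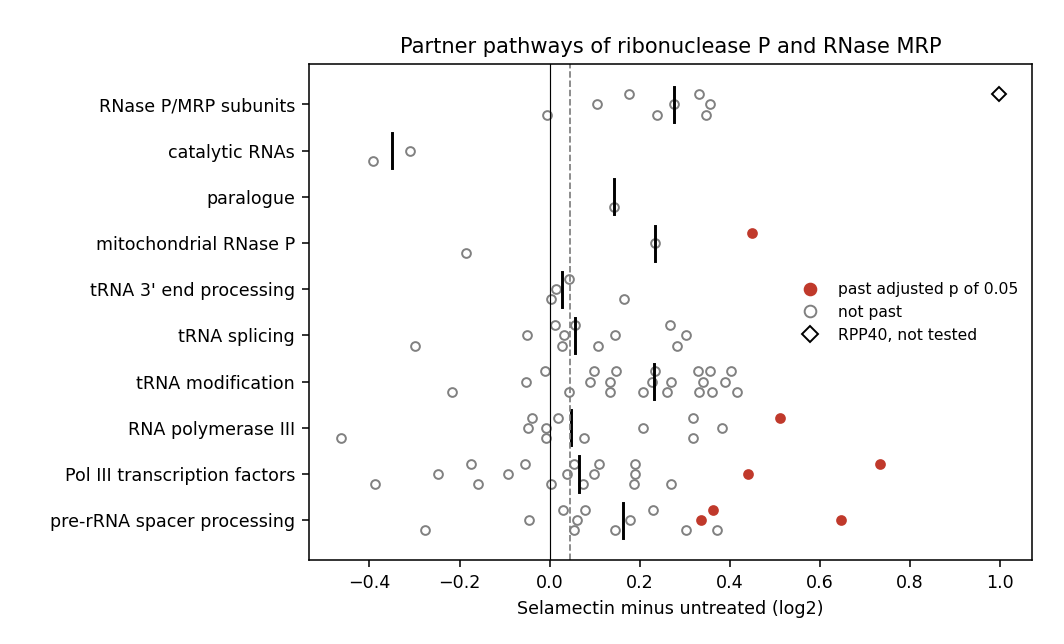
Log2 difference, selamectin minus untreated, of each measured gene in the subunit list and the 9 pathway lists. Filled circles passed an adjusted p of 0.05 in limma, open circles did not, the open diamond is RPP40, short bars are list medians and the dashed line is the median of all genes. The 7 calls all lie above 0, and the 2 catalytic RNAs both lie below it.

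The label of the cells was checked against marker genes. VIM, the mesenchymal filament gene, averaged 12.90 ± 0.07 with selamectin and 12.67 ± 0.05 untreated (SD, n = 3 each), and CDH1, the epithelial cadherin gene, 6.01 ± 0.04 with selamectin and 6.27 ± 0.07 untreated. Of 6 genes typical of the line, CD44 rose and SPARC fell in limma, where 2.41% of all genes rose and 2.28% fell. None of 4 leukocyte, 4 endothelial or 5 fibroblast markers measured passed, where 4.69% of all genes passed in either direction. Passing concerns the treatment and not the identity of the cells. The highest marker in each of these lists was CD68 (10.04 with selamectin, 10.07 untreated), CDH5 (8.93 and 9.52, limma adjusted p = 0.067) and COL1A1 (8.98 and 9.05). Their other markers stood lower. Among 7 genes listed as low in this line, KRT18 stood at 13.49 with selamectin and 13.41 untreated and none passed. ERBB2, the HER2 gene, was next at 9.08 with selamectin and 9.17 untreated, and the rest stood lower. SPARC had the lowest mean of the genes typical of the line, at 7.20 with selamectin and 7.64 untreated. Without detection calls no marker can be called absent.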

How the data were processed

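The deposited table gives 33297 transcript clusters in rows and 6 arrays in columns. Per the submitters' processing notes, the tools were RMA, Affymetrix Expression Console and Transcriptome Analysis Console; versions, settings and the genome build are not given in the sources used here. The deposited values are taken as log2 expression values as RMA gives them, though the log base is not stated. RMA in its usual form removes a shift shared by all genes and compresses differences of dim genes. Array medians lay between 7.47 and 7.51.

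Arrays were grouped by title. Scanner files, detection calls and scan batches were not used here. An array has no read depth, so the number of arrays limits the precision: the median SE of a log2 difference was 0.094.

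Symbols came from the platform annotation, and 19460 clusters had 1 symbol, 1754 had several and 12083 had none listed. Entrez numbers matched 19429 of the first in RefSeq, and 0 symbols changed. The cluster with the highest mean stood for each gene, which gave 18417 genes. With R 4.3.3, limma 3.58.1 (two-sided, trended eBayes after lmFit, no block) tested selamectin minus untreated, with Benjamini-Hochberg adjustment over all genes at 0.05. The fit was tested on simulated data. Intervals are 95% intervals of the fit, not adjusted for the number of genes.

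Members and lists were chosen with earlier results of these data known. Named were all members, the genes past the threshold and the 3 genes with the smallest p-values in each pathway list, 3 neighbours of RPP40 on either side and the 5 genes most like it. Promoters are RefSeq sequences, and the 3 printed were picked after their values were seen. Alternatives were 2 filters on dim genes, 2 eBayes settings, median centring, a second quantile normalization, array weights, averaged clusters, all clusters, a replicate block, a threshold of 0.1 and leaving out each array.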

Additional observations from a re-analysis of the deposited data

How the results depend on the processing

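The RPP40 difference lay between 0.89 and 1.13 when 1 array was left out. It was 0.93 with array weights, 0.99 after a second quantile normalization and 1.01 with median-centred arrays. The filters on dim genes, the eBayes settings, averaged clusters, all clusters and the replicate block could not change it. They leave its group means as they are. Among the 8 partners, the number past the threshold was 0 in the fit described. It was 1 with either filter on dim genes (RPP30), though dropping the dimmest 50% left 7 partners, without POP1. It was 3 with array weights (POP1, RPP25 and RPP38), where 17.8% of all genes were called in place of 4.69%. It was 2 at an adjusted p of 0.1, and 0 to 1 when 1 array was left out (RPP25 without selamectin array 1). The number higher at an unadjusted p under 0.05, 5 in that fit, was 3 after a second quantile normalization and 3 to 4 when 1 array was left out. POP5, at -0.01, changed sign with median-centred arrays (0.0074) and spanned -0.067 to 0.034 when 1 array was left out, being positive without untreated array 1 (0.034), untreated array 3 (0.016) or selamectin array 1 (0.023). The other 7 partners, RPPH1 and RMRP kept their sign throughout. The 7 pathway calls became 11 with either filter on dim genes, where 7.39% and 10.2% of all genes were called. The filters left 86 and 83 of the 87 measured pathway genes. The calls became 11 without the intensity trend (4.95%) and 11 with a robust fit (5.43%). They became 26 with array weights (17.8%), 1 with all clusters in the fit (0.907%) and 1 to 10 when 1 array was left out (0.956% to 6.24%). At an adjusted p of 0.1 there were 20, and the share of all genes at that threshold was not counted. The cause of these shifts was not tested. With replicate number as a block, RPP40 stayed at 1.00, 0 partners and 5 pathway genes passed, HSD17B10, ISG20L2 and NOB1 no longer did, and calls over all genes were 307 rises and 343 falls, in place of 444 and 420. Same-numbered arrays had correlations of -0.01, 0.24 and -0.14 between their deviations from the group means. Of 3 selamectin arrays, 1 correlated best with the untreated array of its own number. With so few arrays these values cannot show whether the numbers pair the arrays. With 3 arrays per group the median SE of a log2 difference was 0.094, and without detection calls signal over background is unknown.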
